A study of Nothobranchius furzeri with 20 samples.

Results

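The 100 genes described here varied most between the 5 muscle libraries of young unexercised killifish. Counts of each gene were divided by the total of their own library and expressed as CPM, counts scaled to an equal library total. Of the 26739 genes in the count table, 5341 had a mean of at least 10 CPM over these 5 libraries. The members are the 100 of them with the highest coefficient of variation (CV, the SD divided by the mean). The values that chose the members are given as a description and carry no test.

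RNA was sequenced from muscle of the turquoise killifish Nothobranchius furzeri, an annual fish with a short life. All fish were males of the strain MZM-04/10p. The 20 libraries comprised 5 from fish aged 9 weeks without exercise, 5 from fish aged 9 weeks with exercise in a swim tunnel, where a fish swims against a current, and 10 from swim-tunnel fish aged 27 weeks. They are called unexercised, young swim and old swim libraries below, with numbers that follow the order of the sample codes and serve only as names. Unexercised fish of 27 weeks were not analysed here. The labels name no individual animals, batches or pairs, so spread between libraries is spread between these samples and may be technical.

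Fish trunk muscle consists mainly of fast fibres, which power bursts of swimming, with a band of slow fibres for sustained swimming. A piece of it also holds vessels with blood, nerve, connective tissue and, depending on the dissection, skin or fat. Variation of a gene between libraries of 1 group therefore joins differences between animals, between dissected pieces and between library preparations. In such bulk samples, fewer cells of a type and less RNA per cell cannot be told apart. The tables named genes by identifiers alone, and 0 of them matched a named gene of the reference table, so no role is given for any member and the muscle label could not be checked against marker genes.

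Library totals ran from 24333849 to 38571967 counts. At this depth counting error was small, with a CV of at most 0.0541 expected from counting alone for any member in the unexercised group. Unexercised library 4 had the highest CPM of its group for 59.6% of the 5341 genes, so a high value there was common. The old swim libraries did not behave as 1 group. The median CV of the 5341 genes was 0.237 over all 10 of them, but 0.131 within libraries 1 to 5 and 0.177 within libraries 6 to 10, so results on old fish are also given for each of these sets. The labels of the 2 sets were alike, and what separates them was not tested.

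In the unexercised group the member CV ran from 0.534 to 2.03 with a median of 0.657, against a median of 0.165 over all 5341 genes. Just inside the limit were Nfu_g_1_014525 (CV 0.537) and Nfu_g_1_001119 (CV 0.534). Just outside it were Nfu_g_1_017316 (CV 0.532) and Nfu_g_1_023527 (CV 0.527). The limit thus fell in a continuous run of values. Their mean level over these same libraries ran from 10.1 to 1184 CPM with a median of 28.7 CPM, against 25.4 CPM for all 5341 genes. A single high library can raise such a mean. Nfu_g_1_021357, for example, had a mean of 25.6 CPM and a median of 1.57 CPM. In the young swim group 19 members had a mean under 10 CPM, as did 331 of all 5341 genes. In the old swim group the counts were 14 and 641. The median length of the members was 2836.5 bases against 3546 bases for all 5341 genes. No member had a count of 0 in any of the 20 libraries, nor had any of the 5341 genes. In at least 1 library 5 of the 100 members fell below 1 CPM, as did 14 of all 5341 genes.

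The 3 members with the highest CV each owed it to unexercised library 5. Nfu_g_1_021357 stood at 1.53, 1.19, 5.24, 1.57 and 118.3 CPM in unexercised libraries 1 to 5. Nfu_g_1_010177 stood at 13.5, 22.9, 8.83, 15.8 and 188 CPM, and Nfu_g_1_016459 at 3.39, 4.25, 2.27, 3.98 and 41.9 CPM. In each of them library 5 lay far above the other 4 libraries. Their later course differed. In young swim libraries 1 to 5, Nfu_g_1_016459 stood at 2.67, 2.85, 3.24, 4.49 and 2.26 CPM, and it stayed between 2.87 and 8.22 CPM (median 4.12) in the old swim libraries. The burst of library 5 was met in no other library for this gene. Nfu_g_1_021357 lay at 1.4 to 6.39 CPM in the young swim libraries and had 1 high old swim library, number 2, at 19.7 CPM with the other 9 between 0.897 and 6.0 CPM. Nfu_g_1_010177 lay at 28.8, 71.2, 36.3, 13.3 and 24.8 CPM in young swim libraries 1 to 5 and between 8.17 and 158 CPM in the old ones (median 20.3). For this gene all of old swim libraries 6 to 10 (27.9 to 158 CPM) lay above all of libraries 1 to 5 (8.17 to 12.8 CPM).

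To show which members varied together, the 5 unexercised libraries of each member were sorted by log2(CPM + 1) and divided at the widest gap. Libraries above the gap are its high libraries. Members fell into 20 such patterns, and 70 members had a single high library. The most frequent pattern was library 5 alone, with 42 members, where 4.08% of the 5341 genes had that pattern. Library 4 alone followed with 24 members, a pattern of 34.8% of all genes. A further 7 members were high in libraries 4 and 5 (3.71% of all genes), and 5 members were high in libraries 1, 2, 3 and 5, which means low in library 4 (2.98% of all genes). The other 22 members were spread over 16 patterns of at most 3 members. Unexercised library 5 thus had the highest CPM for 50 of the 100 members and library 4 for 31. When the rule was applied without library 5, 56 of the members were chosen again, and 67 without library 4.

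**Figure D1:**
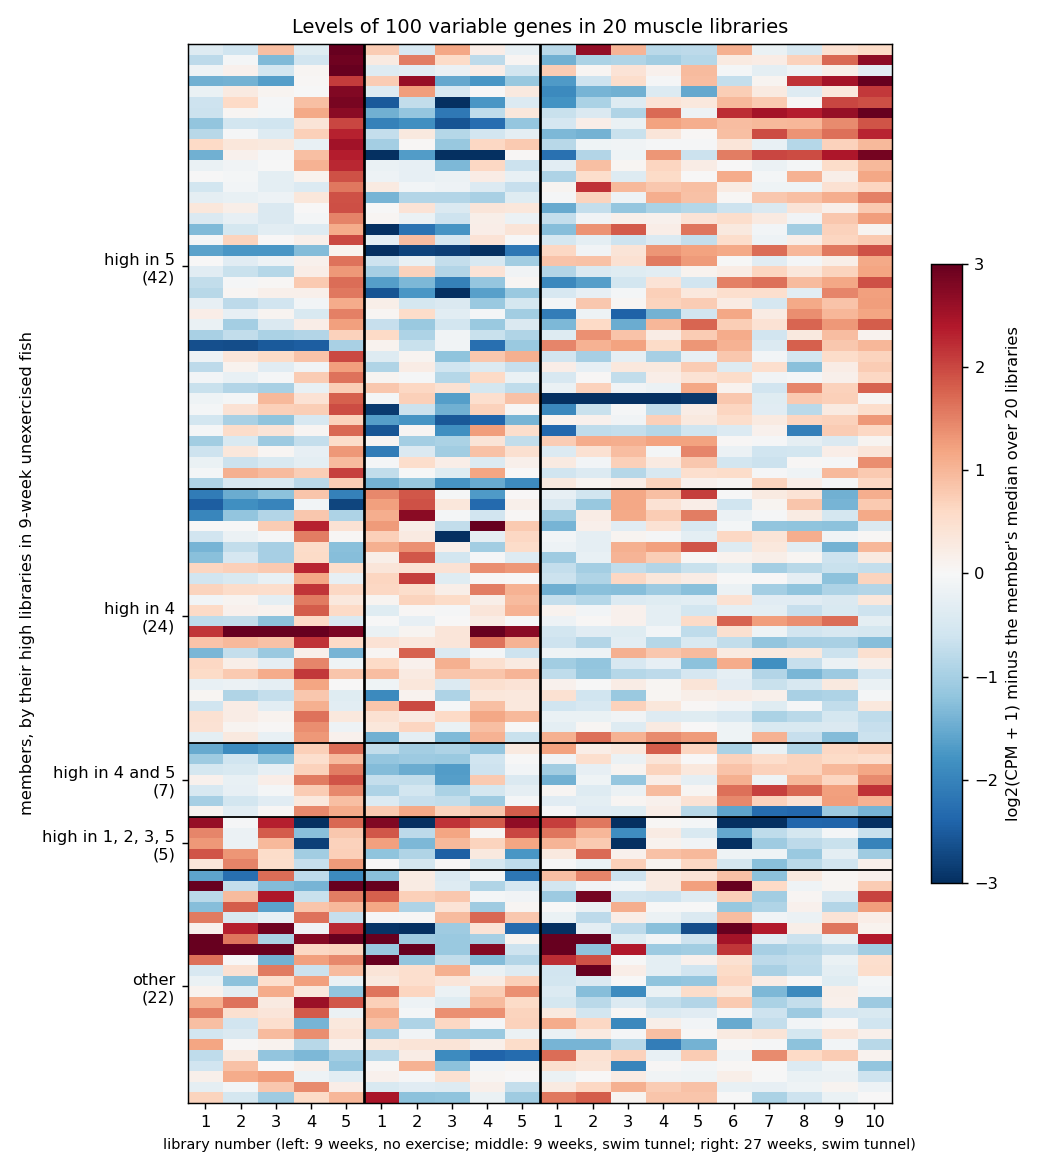
Each row is 1 of the 100 members and each column 1 of the 20 libraries, with colour giving log2(CPM + 1) minus the member's median over all libraries (limited to -3 and 3). Rows are grouped by their high libraries in the unexercised fish; the 42 members high in unexercised library 5 form the red column at the top left, and many of them are also high in old swim library 10.

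The members high in library 5 alone together held 1.14% of all counts in that library and between 0.277% and 0.421% in the other unexercised libraries. The 2 most abundant of them were also the most abundant members of all. Nfu_g_1_012105 stood at 807, 799, 870, 900 and 2544 CPM in unexercised libraries 1 to 5. Nfu_g_1_012452 stood at 419, 596, 691, 844 and 1849 CPM. Library 5 was the highest for both, with the first 4 libraries close together for Nfu_g_1_012105 and more spread for Nfu_g_1_012452. In young swim libraries 1 to 5, Nfu_g_1_012105 stood at 5386, 3153, 4678, 1046 and 2307 CPM, and in the old swim libraries it lay between 3790 and 17267 CPM with a median of 10330. Its high unexercised value lay within the range of the young swim libraries and below every old one. Nfu_g_1_012452 stood at 357, 495, 200, 818 and 970 CPM in the young swim libraries and between 232 and 818 CPM (median 389) in the old ones, all of them below its value in unexercised library 5.

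The members high in library 4 alone held 0.384% of the counts of that library, against 0.116% to 0.152% in the other unexercised libraries. Nfu_g_1_006687, the most abundant of them, stood at 265, 613, 536, 1217 and 420 CPM in unexercised libraries 1 to 5. In young swim libraries 1 to 5 it stood at 51.1, 62.3, 75.6, 613 and 392 CPM. Young swim libraries 4 and 5 thus reached the unexercised range while libraries 1 to 3 lay below it. In the old swim libraries it was low and even, from 34.5 to 83.0 CPM with a median of 44.0 CPM, and its CV went from 0.596 in the unexercised to 1.06 in the young swim and 0.289 in the old swim group (0.156 without old swim library 6). Nfu_g_1_004263, the next in abundance, stood at 233, 259, 200, 725 and 305 CPM in the unexercised libraries. Young swim libraries held it at 260, 393, 367, 276 and 472 CPM and old ones at no more than 340 CPM (median 192), with CVs of 0.247 and 0.316 (0.163 within old swim libraries 1 to 5). Its single high library had no counterpart in the swim groups.

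Members high in libraries 4 and 5 were led by Nfu_g_1_008727 and Nfu_g_1_011365. Nfu_g_1_008727 stood at 67.3, 53.1, 71.0, 184 and 230 CPM in the unexercised libraries. Nfu_g_1_011365 stood at 61.1, 64.3, 74.6, 144 and 257 CPM. In young swim libraries 1 to 5 these genes differed, Nfu_g_1_008727 being highest in library 4 (36.9, 36.9, 18.9, 107 and 45.4 CPM) and Nfu_g_1_011365 in library 5 (35.6, 31.0, 27.0, 57.4 and 83.3 CPM). Of the 7 members with this pattern, 6 were highest in young swim library 5, where 22.7% of all 5341 genes were highest.

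The members low in library 4 alone included an abundant gene with a very wide spread. Nfu_g_1_005737, a gene of 4677 bases, stood at 639, 101, 522, 6.09 and 340 CPM in unexercised libraries 1 to 5. It stood at 710, 11.4, 467, 373 and 661 CPM in young swim libraries 1 to 5. In old swim libraries 1 to 10 it stood at 434, 308, 3.46, 105, 99.5, 3.85, 11.6, 19.0, 18.7 and 3.57 CPM. The highest library exceeded the lowest 105-fold, 62.1-fold and 125.3-fold in the 3 groups, and the lowest values rested on 190, 393 and 92 counts. Every group thus held libraries rich in this transcript and at least 1 library at 11.4 CPM or below. The other leading gene of this pattern, Nfu_g_1_009697, was low in unexercised library 4 as well (195, 132.9, 77.4, 24.9 and 86.3 CPM) but stood highest in young swim library 4 (22.1, 27.3, 8.71, 64.3 and 15.0 CPM). It varied from 23.8 to 171 CPM in the old swim libraries, with library 2 the highest.

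Several members repeated the order of Nfu_g_1_005737 at a lower level. They were picked after their values had been seen and carry no test. From highest to lowest, Nfu_g_1_005737, Nfu_g_1_009854 and Nfu_g_1_020108 ranked the unexercised libraries 1, 3, 5, 2, 4 and the young swim libraries 1, 5, 3, 4, 2. Of all 5341 genes, 5 (0.0936%) had both of these orders, 3 of them members. Nfu_g_1_009854 (737 bases) stood at 54.7, 19.3, 43.4, 2.24 and 35.8 CPM in unexercised libraries 1 to 5 and at 52.5, 7.94, 43.7, 35.1 and 50.4 CPM in young swim libraries 1 to 5. Nfu_g_1_020108 stood at 18.6, 5.99, 13.9, 2.98 and 12.0 CPM and at 18.2, 4.48, 15.0, 9.16 and 15.9 CPM. Another member, Nfu_g_1_023097, stood at 40.4, 12.2, 51.8, 5.26 and 25.3 CPM and at 53.0, 7.70, 32.9, 14.5 and 58.6 CPM. All 4 were lowest in unexercised library 4 and in young swim library 2. In the old swim group all 4 were highest in library 1, next in library 2 and lowest in library 3. Nfu_g_1_009854 went there from 45.2 CPM in library 1 to 0.678 CPM in library 3, Nfu_g_1_023097 from 44.2 to 3.13 CPM and Nfu_g_1_020108 from 21.8 to 1.73 CPM. The fold between highest and lowest library was smaller than for Nfu_g_1_005737 in each group, and in the unexercised fish it was 24.4 for Nfu_g_1_009854, 9.85 for Nfu_g_1_023097 and 6.23 for Nfu_g_1_020108.

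**Figure D2:**
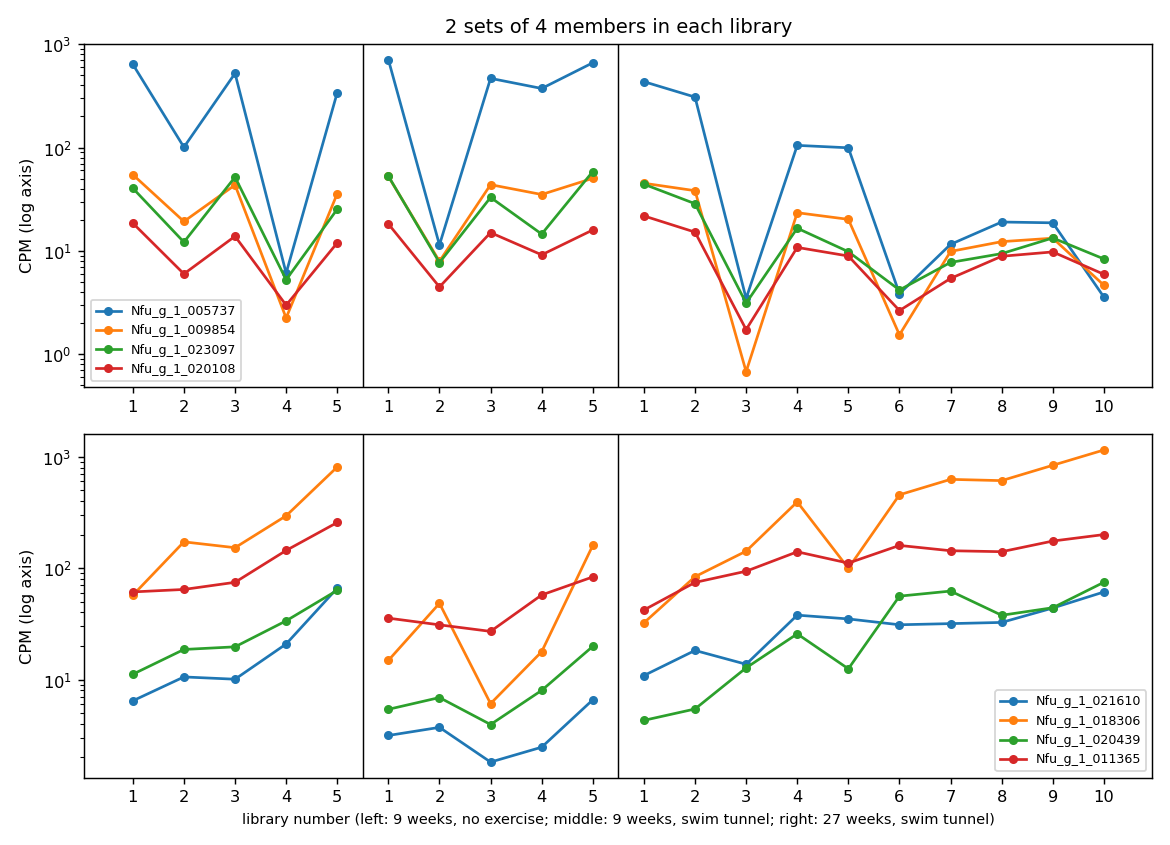
CPM (log axis) of 2 sets of 4 members in the 20 libraries, with lines joining the libraries of 1 group for reading only. Upper panel: all 4 genes dip in unexercised library 4, young swim library 2 and old swim libraries 3 and 6; lower panel: all 4 peak in unexercised library 5, young swim library 5 and old swim library 10.

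The CV was next taken in libraries that the choice of members had not used. In the young swim group 45 of the 100 members had a CV of at least 0.534, the limit of the rule, where 3.37% of the 5341 genes reached it. In the old swim group 46 members reached it, with 6.44% of all genes. Within old swim libraries 1 to 5 the count was 31 (1.85% of all genes) and within libraries 6 to 10 it was 23 (1.57%). In each set of libraries the share of members that varied this much was above that of genes at large, while in each swim group more members stayed below the limit than reached it. The median member CV was 0.501 in the young swim and 0.480 in the old swim group, against 0.176 and 0.237 over all genes, and 0.396 and 0.385 within the 2 sets of old libraries.

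The members nonetheless varied less in the swim groups than in the libraries that chose them. A CV at least as high as their own unexercised CV was found for 26 members in young swim and 23 members in old swim libraries. Over all 5341 genes the shares were 57.0% and 75.5%. Genes chosen for the highest values in 1 group can be lower in another by that choice alone, so nothing is read from this about exercise or age. Of the 100 genes among the 5341 with the highest CV in the young swim group, 29 were members, and in the old swim group 21. Members make up 1.87% of the 5341 genes. Genes under 10 CPM in the unexercised group were not ranked. The limit was reached in both swim groups by 28 members (1.39% of all genes), in the young swim group alone by 17 (1.98%), in the old swim group alone by 18 (5.06%) and in neither by 37 (91.6% of all genes). Of the 46 members that reached the limit over the 10 old swim libraries, 8 reached it within neither set of 5. Of the 344 genes that reached it over these 10, 227 did so within neither set (4.25% of all genes).

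**Figure D3:**
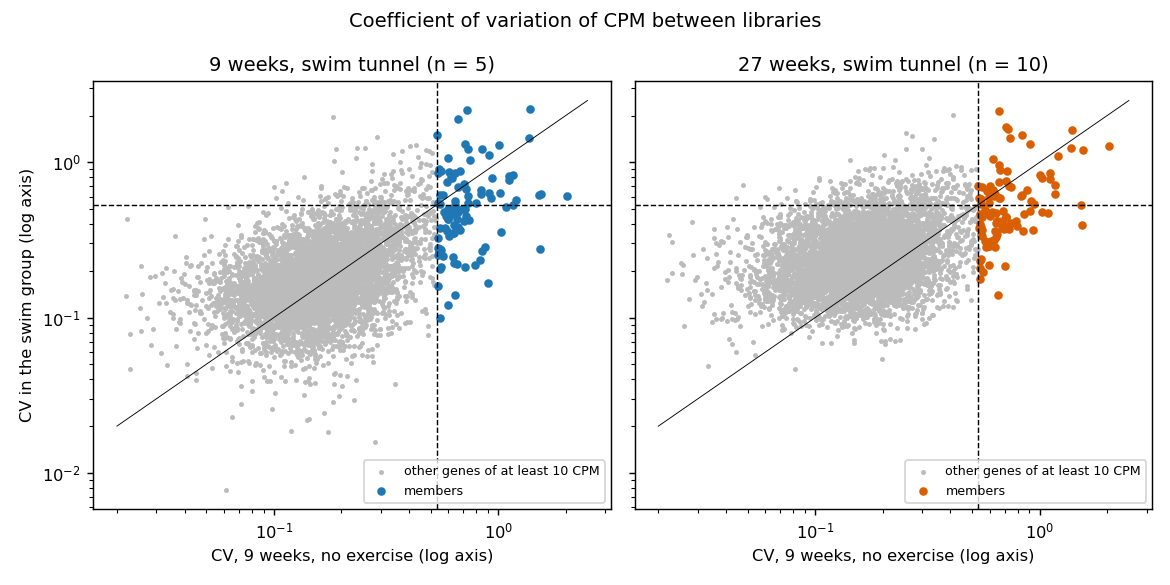
CV between libraries in the unexercised group (horizontal, log axis) against that in the young swim (left, 5 libraries) and old swim group (right, 10 libraries) for 100 members (coloured) and the other genes of at least 10 CPM (grey). Dashed lines mark the limit of 0.534 and the thin line equal CVs; 45 members lie above the horizontal line on the left and 46 on the right.

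How often the variation recurred is given by pattern, though each pattern is small. Of all 5341 genes, 3.37% reached the limit in the young swim group, 6.44% in the old and 1.39% in both. Shares for all genes of the same pattern are not given. Among the 42 members high in library 5, 16 reached the limit in the young swim group, 18 in the old and 11 in both. Among the 24 high in library 4, the counts were 13, 7 and 5. Of the 5 low in library 4, 3 reached it in the young swim group, 4 in the old and 3 in both. No difference between patterns was tested. A single library stood apart from the others of its group, as judged from Dixon's 95% limit for the gap over the range, for 16 members in the young swim group (6.7% of all 5341 genes) and for 18 in the old swim group (7.7%). In all of these it was the highest library.

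The 2 members with the highest CV in the young swim group owed it to library 1. Nfu_g_1_021346 stood at 932, 6.19, 3.68, 2.26 and 3.29 CPM there (CV 2.19), and Nfu_g_1_007538 at 130, 0.320, 0.263, 0.377 and 1.89 CPM (CV 2.18). Each was thus high in 1 library of the group and low in the other 4, and without library 1 the CVs were 0.432 and 1.10. In unexercised libraries 1 to 5, Nfu_g_1_021346 stood at 47.9, 2.70, 1.48, 1.31 and 91.3 CPM. Among the old swim libraries it was high in library 6 (75.6 CPM) and lay between 3.16 and 13.4 CPM in the other 9. Nfu_g_1_007538 stood at 25.9, 7.39, 0.410, 17.5 and 24.1 CPM in the unexercised libraries. It was at 74.2 and 79.7 CPM in old swim libraries 1 and 2, at 14.6 and 13.3 CPM in libraries 6 and 10 and between 0.749 and 1.60 CPM in the other 6. This gene therefore had high and near-floor libraries in all 3 groups.

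A member chosen for its likeness to Nfu_g_1_007538 after the values were seen, Nfu_g_1_009468, stood at 21.7, 6.33, 1.70, 15.9 and 18.5 CPM in the unexercised libraries, the same order. Young swim library 1 held 74.0 CPM of it and the other 4 between 1.92 and 3.37 CPM. It was highest in old swim libraries 1 and 2 (32.7 and 26.3 CPM), which are also the 2 highest of Nfu_g_1_007538.

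The highest CVs in the old swim group were those of Nfu_g_1_017106 (2.13) and Nfu_g_1_007489 (1.68). Nfu_g_1_017106 reached 248 CPM in old swim library 2 and lay between 6.05 and 19.5 CPM in the other 9. It stood at 8.98, 18.0, 39.5, 7.79 and 25.6 CPM in unexercised and at 17.0, 18.5, 27.9, 11 and 9.62 CPM in young swim libraries 1 to 5. A single library made its spread in old fish, and without it the CV was 0.439. Nfu_g_1_007489, a gene of 645 bases, stood at 20.9, 20.3, 19.8, 2.95 and 3.03 CPM in the unexercised libraries. In young swim libraries 1 to 5 it stood at 0.191, 19.8, 0.184, 16.4 and 0.658 CPM. Old swim libraries 1, 3 and 6 held 24.4, 12.4 and 10.4 CPM and the other 7 between 0.0995 and 0.549 CPM. Its levels were thus either above 10 CPM or at most 3.03 CPM in all 20 libraries, with no value in between, and the lowest rested on 3 counts.

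At the other end, Nfu_g_1_015069 and Nfu_g_1_001188 varied little in both swim groups. Nfu_g_1_015069 stood at 9.25, 18.7, 20.7, 7.22 and 6.35 CPM in unexercised libraries. It lay between 7.96 and 11.6 CPM in young swim and between 4.92 and 9.83 CPM in old swim libraries (CVs 0.159 and 0.178). Its young swim CV was 0.053 without library 3 and 0.276 on the deposited RPKM values. Nfu_g_1_001188 stood at 71.3, 94.8, 97.3, 76.4 and 223 CPM in unexercised libraries and had CVs of 0.211 and 0.197 in the swim groups. These became 0.404 in the young swim group on RPKM and 0.297 in the old swim group with DESeq2 size factors. The deposited RPKM values are not scaled by each library's own total, so CVs taken from them also hold differences between library totals. On CPM both were near the median gene, whose CV was 0.176 in the young swim and 0.237 in the old swim group.

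Whether members of a pattern also moved together in the swim groups was described by the library in which each was highest. In the old swim group 24 of the 42 members high in unexercised library 5 were highest in library 10, where 3.71% of the 5341 genes were highest. With TMM scaling, which sets libraries level on the bulk of genes, the count was 23 and the share of all genes 7.73%. Both shares cover genes with any peak in the unexercised group. Among the 629 genes highest in unexercised library 5, old swim library 10 was the highest by CPM more often than among all genes. Those with old swim library 10 and young swim library 5, 2 or 4 highest made up 4.29%, 4.61% and 4.45% of the 629. These are separate genes, so the share of the 629 was at least the sum of these shares. The 24 of 42 is better set against that larger share, which is not given in full. In the young swim group the same 42 members divided, with 14 highest in library 5 (22.7% of all genes), 12 in library 2 (7.43%) and 10 in library 4 (48.3%). Members with a common peak in unexercised library 5 thus parted in young swim fish. Among the 50 members highest in unexercised library 5, 11 were also highest in young swim library 5 and old swim library 10, as were 4.29% of the 629 genes highest in that unexercised library. For 9 of the 50 the other peaks were young swim library 2 and old swim library 10 (4.61% of the 629), for 5 young swim library 4 and old swim library 10 (4.45%) and for 4 young swim library 5 and old swim library 6 (5.72%). Of the 31 members highest in unexercised library 4, 6 peaked in young swim library 4 and old swim library 6 and 4 in young swim library 2 and old swim library 3, where 18.1% and 1.35% of the 3182 genes highest in that library did. Of the 8 members highest in unexercised library 1, 4 peaked in library 1 of both swim groups (5.54% of 560 genes).

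**Figure D4:**
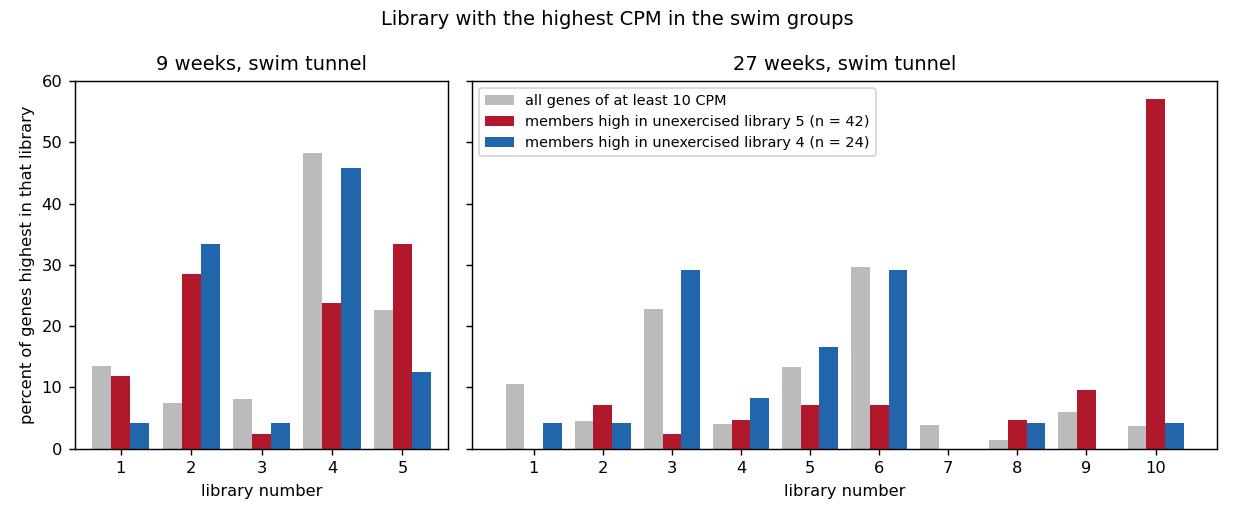
Percent of genes with their highest CPM in each young swim (left) and old swim library (right), for all genes of at least 10 CPM (grey), the 42 members high in unexercised library 5 (red) and the 24 high in unexercised library 4 (blue). Old swim library 10 holds the highest value of 24 of the 42 red members, against 3.71% of all genes, whichever unexercised library was their highest. Among genes highest in unexercised library 5 that share was larger.

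Nfu_g_1_018306 is an example of members that peaked in unexercised library 5, young swim library 5 and old swim library 10. It stood at 57.1, 172, 153, 295 and 809 CPM in unexercised and at 14.8, 48.3, 6.08, 17.8 and 160 CPM in young swim libraries 1 to 5. In old swim libraries 1 to 10 it stood at 32.3, 83.8, 142.0, 393, 99.7, 455, 626, 610, 838 and 1149 CPM. Nfu_g_1_021610, Nfu_g_1_020439 and Nfu_g_1_011365 had their highest and their lowest library in common with it in all 3 groups, lowest in unexercised library 1, young swim library 3 and old swim library 1. Of all 5341 genes 5 had these 6 libraries in common (0.0936%), 4 of them members. Nfu_g_1_021610 stood at 6.44, 10.6, 10.1, 20.8 and 66.1 CPM in unexercised and at 3.15, 3.72, 1.82, 2.47 and 6.58 CPM in young swim libraries, and Nfu_g_1_020439 at 11.2, 18.6, 19.7, 33.6 and 63.2 CPM and at 5.40, 6.89, 3.95, 7.99 and 19.8 CPM. These 4 genes were named after their values had been seen.

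Nfu_g_1_001278, also named after its values were seen, peaked in young swim library 2 and old swim library 10. It stood at 8.51, 8.66, 7.10, 25.5 and 108 CPM in unexercised and at 42.7, 156, 7.81, 6.69 and 10.7 CPM in young swim libraries 1 to 5, with 284 CPM in old swim library 10 and a lowest old library of 6.84 CPM. Young swim library 5, the highest for Nfu_g_1_018306, was thus among its lower libraries.

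Of the 24 members high in unexercised library 4, 8 were highest in young swim library 2 (7.43% of all genes) and 11 in library 4 (48.3%). With TMM scaling 10 were highest in library 2, with 17.7% of all genes. All 8 reached the CV limit in the young swim group, against 5 of the other 16. Of the 8, 7 were highest in old swim library 3 or 5 (36.1% of all genes) and 6 were lowest in old swim library 9 (6.59%). Among them Nfu_g_1_007454 (871 bases) stood at 15.1, 24.1, 21.6, 83.6 and 12.4 CPM in unexercised and at 210, 335, 114, 16.9 and 98.4 CPM in young swim libraries 1 to 5. Nfu_g_1_017699 (14453 bases) stood at 4.41, 7.23, 8.83, 40.2 and 4.67 CPM and at 61.4, 83.0, 21.5, 6.07 and 22.1 CPM. Both were thus high in unexercised library 4 and lowest in young swim library 4, and both were lowest in old swim library 9, at 33.2 and 7.44 CPM. These 8 were grouped after their values had been seen.

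Over all pairs of members, 156 of 4950 (3.15%) had their highest library in common in all 3 groups, and over all pairs of the 5341 genes 3.17% did. Most genes at large peaked in unexercised library 4, and members most often in unexercised library 5. The 2 shares thus rest on unlike peaks. In the 2 swim groups alone, 219 member pairs (4.42%) had their highest libraries in common, against 6.13% of all pairs. When both the highest and the lowest library had to match in all 3 groups, 13 member pairs (0.263%) remained, against 0.0895% of all pairs. The measures over 3 groups include the unexercised libraries, which chose the members, so nothing is read from them. Members with consecutive identifiers, of which there were 3 pairs, had different high libraries within each pair.

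Levels were compared between old and young swim fish, whose libraries the choice of members had not used. The fit of all 20 libraries, however, took its estimate of spread from the unexercised libraries too, whose wide spread chose the members. The p-values and counts of called members are therefore not independent of that choice. Of the 100 members 22 were higher and 17 lower in old fish (quasi-likelihood test of edgeR over 16653 tested genes, p adjusted by Benjamini-Hochberg, threshold 0.05). Of all tested genes 14.8% were higher, 16.8% lower and 31.7% either. Among the 5341 genes of at least 10 CPM, 10.2% were higher, 31.8% lower and 42% either. The 39 members called in all are near these shares. More were higher and fewer lower than among the 5341 genes, which were chosen by unexercised mean alone. In the young swim group 19 members and 331 of the 5341 had a mean under 10 CPM. The lower members were near the 16.8% of all tested genes. With old swim libraries 1 to 5 alone, 13 were higher and 26 lower (22.4% and 28.1% of all tested genes). With libraries 6 to 10, 23 were higher and 10 lower (9.95% and 13.5%). Only 8 of the 22 and 9 of the 17 were called the same way with each set. With all 10 old swim libraries the median log2 fold change was 0.16 over members and 0.03 over all tested genes. Old and young swim libraries did not overlap in CPM for 13 members, 6 of them higher and 7 lower in old fish. Of all 16653 tested genes 7.46% did not overlap, 321 of them higher and 921 lower in old fish. The share among genes of at least 10 CPM is not given for the overlap, and levels were not matched.

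The counts in each direction differed between patterns, a difference that was not itself tested. Among all genes of at least 10 CPM, 10.2% were higher and 31.8% lower in old fish. Shares for all genes of the same pattern are not given here either. Of the 42 members high in unexercised library 5, 15 were higher in old fish and 0 lower (17 and 0 by DESeq2), with a median log2 fold change of 0.68 and 36 of 42 positive. At an unadjusted p under 0.05 the edgeR test found 18 of the 42. Of the 24 high in library 4, 11 were lower and 0 higher (11 and 0 by DESeq2), with a median of -0.73 and 4 positive. Of the 7 high in both libraries 4 were higher and 1 lower. Of the 5 low in library 4, 0 passed by edgeR, with 3 at an unadjusted p under 0.05 and 1 called by DESeq2. Among the other 22 members 3 were higher and 5 lower. For the members high in library 5 the split was not the same in the 2 sets of old swim libraries. With only libraries 6 to 10 kept, 15 of the 42 were higher and 0 lower, where 9.95% and 13.5% of all tested genes were called. With only libraries 1 to 5 kept, 9 were higher and 7 lower, where 22.4% and 28.1% of all tested genes were called. The share of higher members was then near that of all tested genes. For each set of old libraries, shares among genes of at least 10 CPM are not given, and levels were not matched. For the 24 members high in library 4, 7 were lower and 1 higher with libraries 6 to 10, and 11 were lower and 1 higher with libraries 1 to 5. For the 7 members high in both, 5 were higher and 1 lower with libraries 6 to 10. With libraries 1 to 5, 0 of these 7 were higher and 1 was lower.

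**Figure D5:**
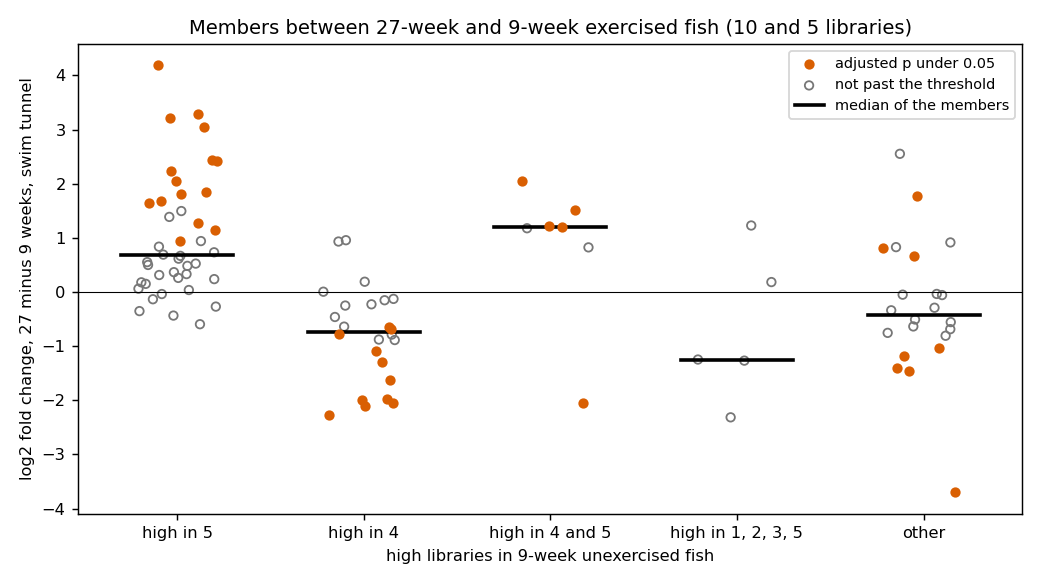
Log2 fold change between old (10 libraries) and young swim fish (5 libraries) for the members of each pattern; filled points passed an adjusted p of 0.05, open points did not, and bars are medians. The median is 0.68 for the 42 members high in unexercised library 5 and -0.73 for the 24 high in library 4.

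The largest increases among called members were those of Nfu_g_1_001848 and Nfu_g_1_018306, both high in unexercised library 5. Nfu_g_1_001848 stood at 8.64, 11.7, 11.3, 4.87 and 18.5 CPM in young swim libraries 1 to 5 and between 79.7 and 327 CPM (median 196) in old ones, which did not overlap (log2 fold change 4.18, SE 0.50, edgeR adjusted p = 1.34e-05). Nfu_g_1_018306, with the values above, rose by 3.29 on the log2 scale (SE 0.97, adjusted p = 0.014 by edgeR), and its groups overlapped. The call on Nfu_g_1_018306 ended with old swim libraries 1 to 5 alone (log2 fold change 1.34, adjusted p = 0.228) and held with libraries 6 to 10 alone (4.09, adjusted p = 0.00362).

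The largest decreases among called members were those of Nfu_g_1_021346 and Nfu_g_1_006687. The log2 fold change of Nfu_g_1_021346 was -3.70 (SE 1.23, edgeR adjusted p = 0.027). It came from young swim library 1, the only young swim library above 6.19 CPM, and without that library the fold change was 1.74 (adjusted p = 0.222). Nfu_g_1_006687 changed by -2.27 on the log2 scale (SE 0.44, adjusted p = 0.00072 by edgeR). Its groups overlapped, since young swim libraries 1 to 3 lay at 51.1 to 75.6 CPM and old ones at 34.5 to 83.0 CPM, and young swim libraries 4 and 5 far above both. Nfu_g_1_005737, for all its spread, was not called between the ages (log2 fold change -2.31, SE 1.02, edgeR adjusted p = 0.0875), although it was without old swim library 1 (-2.98, adjusted p = 0.0309) and with old swim libraries 6 to 10 alone (-5.05, adjusted p = 0.00531).

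The 2 contrasts against the unexercised group used the libraries that chose the members, so their counts are given without a reading. Between young swim and unexercised fish 0 members were called by edgeR, with 33 at an unadjusted p under 0.05, and 0.18% of all tested genes were called (0.108% higher and 0.0721% lower). DESeq2 called 14 members, 4 higher and 10 lower, and 2.54% of all genes. Between old swim and unexercised fish 27 members were called, 10 higher and 17 lower in old fish, against 40.1% of all tested genes, 21.2% higher and 18.9% lower. Both contrasts share the unexercised libraries, and the age contrast shares the swim libraries with them. Summed over members, the share of all counts was 0.837% ± 0.381 (SD, n = 5) in unexercised, 0.853% ± 0.148 (SD, n = 5) in young swim and 1.63% ± 0.358 (SD, n = 10) in old swim libraries. Most of the old swim value was Nfu_g_1_012105, at a median of 10330 CPM.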

How the data were processed

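The authors deposited raw counts per gene and RPKM values for 26739 genes in 20 muscle libraries. Per the submitters' processing notes, tools included featureCounts 1.4.6-p4, STAR 2.4.1d and bcl2fastq 1.8.4. Genome build, annotation and strand setting were not given in the sources used here; counts of overlapping genes or close copies are therefore uncertain. The deposited RPKM values are scaled by library totals that run down the rows of the table and not by each column's own total. The length implied for a gene by both tables had a median SD over libraries of 8.55e-05 log2 units with the former and 0.248 with the latter (7616 genes). RPKM therefore served for gene lengths and as an alternative.

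Identifiers matched 0 of 38438 genes of assembly NfurGRZ-RIMD1, so symbol lists of muscle, blood, skin, immune, fat, clock and stress genes could not be used. No column was unused, 4257 genes had no counts, and no library repeated another (lowest chi-square 29.6 per degree of freedom). Library totals were 24333849 to 38571967 counts.

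CPM used own library totals. Differences were tested in R 4.3.3 with edgeR 4.0.16: filterByExpr with a minimum count of 10, TMM factors, and a robust quasi-likelihood fit of all 20 libraries with group as the only term. Contrasts were two-sided, with Benjamini-Hochberg adjustment over 16653 genes and a threshold of 0.05. SE was derived from the fold change and its F statistic. DESeq2 1.42.0, other scalings, filters and left-out libraries were alternatives. Both selection and test were checked on simulated data. P-values measure only the spread between these samples.

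Named members are the 3 with the highest CV, the 2 on each side of the limit, the 2 most abundant overall and of each pattern of at least 5 members, the 2 with the highest CV in each swim group, the 2 most even in both, and the 2 largest changes each way with age. Others are said to have been named after their values were seen. Members, patterns and lists were chosen with earlier results of these data known.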

Additional observations from a re-analysis of the deposited data

Results flagged for a closer look

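For the named members and for the summed share of all members and of 4 patterns, the gap between the highest or lowest library and its nearest neighbour was divided by the range of the group. In 21 of 78 such groups 1 library stood further apart than Dixon's 95% limit (0.710 for 5 libraries, 0.466 for 10). Chance flags about 1 in 20 groups, or 3.9 here, but that is no yardstick for these genes, and among the 5341 genes of at least 10 CPM 13.5%, 6.7% and 7.7% were past the limit in the unexercised, young swim and old swim groups. In all 21 it was the highest library. Of these, 10 were in the unexercised group, whose values chose the members. A further 5 were in the young swim and 6 in the old swim group, and Nfu_g_1_021346 and Nfu_g_1_007538 in the former and Nfu_g_1_017106 and Nfu_g_1_007489 in the latter had been named for the highest CV there.

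In the unexercised group library 5 stood apart for Nfu_g_1_021357 (ratio 0.965), Nfu_g_1_010177 (0.922), Nfu_g_1_016459 (0.950), Nfu_g_1_012105 (0.942), Nfu_g_1_001188 (0.828) and Nfu_g_1_001848 (0.858, at 93.4 CPM with the others between 24.9 and 34.6 CPM). It also did for the summed share of the members high in library 5 (0.833). Library 4 stood apart for Nfu_g_1_014525 (0.755, at 56.0 CPM with the others between 18.1 and 27.4 CPM), Nfu_g_1_004263 (0.800) and the summed share of the members high in library 4 (0.863).

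In the young swim group library 1 stood apart for Nfu_g_1_021346 (0.996), Nfu_g_1_007538 (0.987) and Nfu_g_1_001119 (0.911, at 91.8 CPM with the others between 6.19 and 13.8 CPM). Library 4 did for Nfu_g_1_014525 (0.735, at 46.9 CPM with the others between 7.59 and 18.0 CPM) and library 5 for Nfu_g_1_018306 (0.726). In the old swim group library 2 stood apart for Nfu_g_1_021357 (0.729) and Nfu_g_1_017106 (0.945), library 6 for Nfu_g_1_006687 (0.565) and Nfu_g_1_021346 (0.858), library 10 for Nfu_g_1_010177 (0.518) and library 1 for Nfu_g_1_007489 (0.493).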

How the results depend on the processing

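Of the 100 members, 35 were kept with the median absolute deviation over the median in place of the CV, 63 with a mean of at least 5 CPM, 28 without unexercised libraries 4 and 5 (an alternative added after the data were seen), and 56 to 87 without 1 library each (56 without library 5, 67 without library 4). TMM scaling, DESeq2 size factors, RPKM, the SD of log2(CPM + 1) and a mean of at least 20 CPM kept 85, 85, 81, 74 and 69. The number at the CV limit in old swim fish was 23 without libraries 1 to 5, and 42 to 45 without 1 library each; in young swim fish it was 40 to 47. With members chosen without 1 unexercised library (added after the data were seen) these counts were 37 to 52 and 38 to 48. Between the ages, 13 members were higher and 26 lower without old swim libraries 6 to 10 (22.4% and 28.1% of all tested genes). Without libraries 1 to 5, 23 were higher and 10 lower (9.95% and 13.5%). Leaving out 1 library each gave 31 to 41 calls, 17 to 24 higher and 12 to 18 lower. Between the 9-week groups the count of 0 became 1 with these groups fitted alone, 14 with DESeq2 and 0 to 3 without 1 library each (3 without young swim library 4, 1 without unexercised library 1). Between old swim and unexercised fish it was 21 to 33. For counts with 1 library left out or groups fitted alone, shares of all tested genes are not given. Nothing is therefore read from shifts of these counts. The decrease of Nfu_g_1_021346 with age reversed to 1.74 without young swim library 1, in a range of -4.74 to 1.74 without 1 library each. The cause of these shifts was not tested. Over the alternatives, age fold changes of the named members kept direction and side of the threshold in 408 cases, gained a call in 15, lost one in 14 and reversed in 1. Their CVs moved by over 1.5 times in 13 of the young swim and 23 of the old swim cases and by less in 155 and 292. The same high libraries were found for 100 members with a pseudocount of 0.1, for 82 with the gap taken in CPM and for 93 with TMM scaling. No paired analysis was possible because the labels give no replicate numbers. Depth did not limit the members, but 1 CV rests on 5 or 10 libraries, identifiers carry no names, and the order of sample codes by group means that a batch and a group cannot be told apart.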
